A study of Homo sapiens with 6 samples.

Results

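The integrin and laminin chain genes were followed in human BJ foreskin fibroblasts on day 8 of reprogramming towards pluripotency. They were taken as every gene symbol of the deposited table that names an integrin alpha chain, an integrin beta chain or a laminin alpha, beta or gamma chain. This gave 38 of 27788 genes, made up of 18 integrin alpha, 8 integrin beta and 12 laminin chain genes. Cells of every group had been infected with lentivirus for 2 polycistronic constructs, O2S, which encodes OCT4 and SOX2, and K2M, which encodes KLF4 and MYC. They grew in serum, were moved onto plates coated with Matrigel, a basement membrane extract, and then received medium for human embryonic stem cells. After trypsin they were sorted by the surface proteins CD13 (gene ANPEP) and CD201 (gene PROCR). Double-negative cells lacked both proteins, CD201-only cells were CD13-negative and CD201-positive, and double-positive cells had both. Each group has 2 poly-A RNA libraries, 6 in all, of a single cell line. BJ cells without the factors were not analysed here. The labels do not say whether the replicates were separate cultures, so p-values measure the spread between these libraries, which may be technical.

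Integrins are receptors made of an alpha and a beta chain that span the membrane and link the matrix to the actin cytoskeleton or, for the beta4 chain, to keratin filaments. The pairing sets the ligand, so that alpha1, alpha2, alpha10 and alpha11 with beta1 bind collagens, alpha5 with beta1 binds fibronectin, and alpha3, alpha6 and alpha7 bind laminins. Laminins are cross-shaped proteins of basement membranes, each built of an alpha, a beta and a gamma chain, and are named by the numbers of those chains. Fibroblasts are known for collagen and fibronectin receptors and for the alpha2 and alpha4 laminins, and epithelia for the alpha6 beta4 integrin and laminin-332. Pluripotent stem cells attach through alpha6 beta1 to laminins with the alpha5 chain and through alphaV beta5 to vitronectin.

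The libraries summed to 489152 to 521352 FPKM (fragments per kilobase of transcript, scaled to the fragment total of the library), and 11983 to 12168 genes reached 1 FPKM in each. No counts were used. Low values of long single-transcript genes were each taken as 1 fragment, and the most frequent estimate was about 12.8 to 18.7 M fragments per library. This approximation rests on 8 to 17 of 51 to 86 values per library, and that they stand for 1 fragment was assumed. On that basis 1 FPKM of a 5 kb transcript is about 64 to 94 fragments. The sort was visible in its transcripts, with ANPEP at 36.0 FPKM in double-negative samples, 28.9 in CD201-only samples and 155 in double-positive cells, and PROCR at 17.3, 47.4 and 51.9 FPKM in the same groups. In bulk RNA, fewer cells of a type and less RNA per cell cannot be told apart.

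ITGA4, ITGA5, ITGA11 and ITGB3, receptor chains known from fibroblasts, were lower in both CD13-negative populations than in double-positive cells. The laminin receptor chain ITGA3 was lower in both too, while ITGA6 and LAMA5 were higher in both. Of 13 tested genes listed for fibroblast receptors and laminins, 6 were lower in double-negative than in double-positive cells (24.5% of all genes). Another 5 were higher (42.1% of all genes). The genes of the beta1 chain and of laminin alpha4 were highest in double-negative and lowest in CD201-only cells. ITGB4 and LAMB3, of the epithelial type, were lowest in double-negative cells. Of the 38 genes, 23 had a mean of at least 1 FPKM and were tested with limma on log2(FPKM + 1), and the other 15 were too low, so the counts that follow cover the tested genes alone. Between double-negative and double-positive cells, 10 were called higher (adjusted p under 0.05 over all genes tested, a call made for 42.1% of 12210 genes) and 9 lower (24.5% of all genes). In CD201-only against double-positive cells, 4 were higher (35.8% of all genes) and 13 lower (22.9%). In double-negative against CD201-only cells, 12 were higher (21.5% of all genes) and 6 lower (16.5%). The 10 and the 12 each include ITGB2 and LAMA3, 2 genes that reached the filter only through double-negative cells and so had to be higher there. The 12 became 7 without double-negative replicate 1, and 7 without CD201-only replicate 1. With no filter on low values, 37 of the genes were tested and 14 were lower in double-negative than in double-positive cells. In both directions together, 82.6%, 73.9% and 78.3% of the tested members were called in these 3 comparisons, against 66.6%, 58.7% and 37.9% of all genes. Their median log2 change was 0.03, -0.23 and 0.24, against 0.11, 0.08 and 0.04 over all genes.

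Changes of at least 1 on the log2 scale, which is 2-fold on FPKM + 1, were mostly falls. Between double-negative and double-positive cells 7 members fell that far (4.67% of all genes) and 1 rose that far (2.01%). In CD201-only against double-positive cells 5 members fell that far (4.12% of all genes) and 0 rose that far (0.68%). In double-negative against CD201-only cells the numbers were 2 lower (1.18% of all genes) and 0 higher (1.03%). All genes together had 63.2%, 61.0% and 56.6% of calls higher in the 3 comparisons. Under median-ratio rescaling of the libraries those shares were 48.3%, 48.1% and 47.1%, and the median change of all genes moved to 0.003 from 0.11 between double-negative and double-positive cells. Under that rescaling the members had 10 higher and 11 lower calls in the first comparison, 3 and 15 in the second and 11 and 6 in the third, with 24 tested. The log2 changes here are on the FPKM + 1 scale, which understates changes of low genes.

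**Figure D1:**
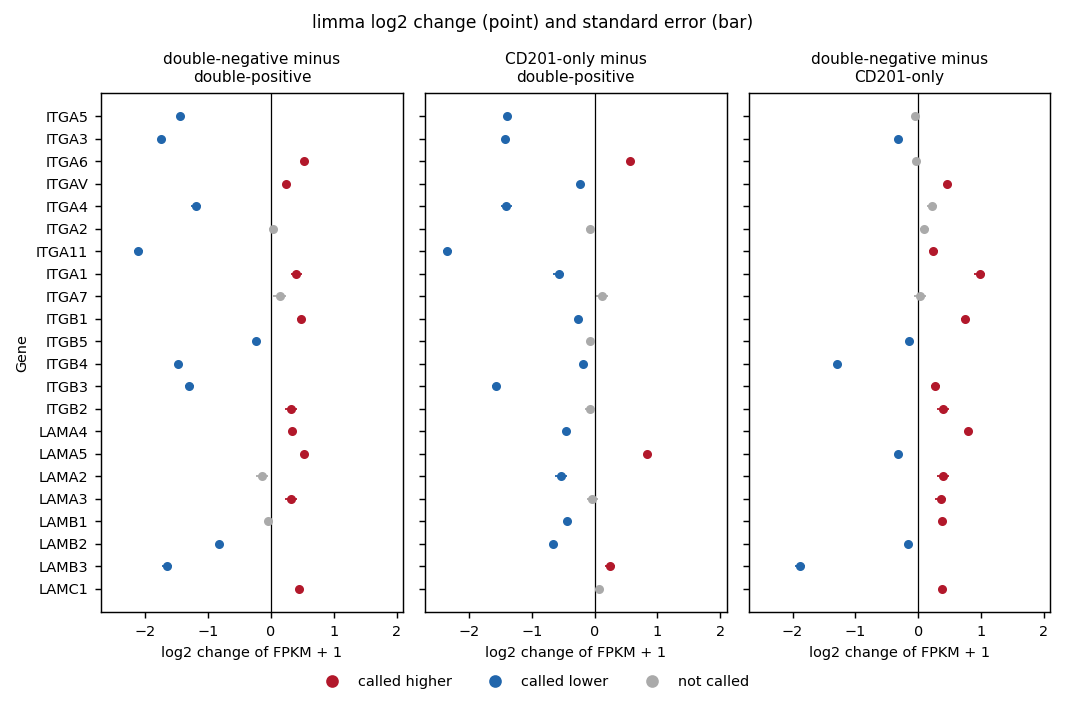
limma log2 change of FPKM + 1 (horizontal axis) with its standard error for 22 of the 23 tested integrin and laminin chain genes (rows), in 3 panels for the 3 pairs of groups, with 2 libraries per group. Red marks genes called higher, blue called lower and grey not called; the falls of ITGA11, ITGA3, ITGA5, ITGA4 and ITGB3 appear in the first 2 panels. ITGB2 and LAMA3 reached the filter through double-negative cells only.

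The receptor of fibronectin was among the clearest falls. ITGA5, the alpha chain that pairs with beta1 to bind fibronectin, stood at 39.8 and 41.0 FPKM in double-negative samples, 42.0 and 42.0 in CD201-only samples and 114 and 109.9 in double-positive libraries. The CD13-negative libraries all lay far below the double-positive ones and close to each other. Its log2 change was -1.45 (SE 0.0322, adjusted p = 1.24e-07) in double-negative and -1.39 (adjusted p = 2.27e-07) for CD201-only against double-positive cells. Between double-negative and CD201-only cells the change of -0.06 was not called (adjusted p = 0.213). ITGAV, the promiscuous alpha chain of vitronectin receptors, moved otherwise, with 43.2 and 42.5 FPKM in double-negative samples, 31.0 and 30.8 in CD201-only samples and 36.1 and 36.6 in double-positive libraries. It rose by 0.23 (adjusted p = 0.000485) in double-negative cells and fell by 0.23 (adjusted p = 0.000694) in CD201-only cells against double-positive cells. The ratio of ITGA5 to ITGAV was 0.920 and 0.964 in double-negative and 1.36 and 1.37 in CD201-only libraries, against 3.17 and 3.0 in double-positive libraries.

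Among collagen receptors, ITGA11 fell most of all 23 tested members. This chain of fibroblasts, which pairs with beta1 and binds fibrillar collagen, was at 1.88 and 1.70 FPKM in double-negative samples, 1.34 and 1.39 in CD201-only samples and 11.1 and 10.9 in double-positive libraries. The double-positive libraries thus stood apart from the rest. Its change was -2.11 (SE 0.0712, adjusted p = 7.38e-07) in double-negative and -2.35 (adjusted p = 6.5e-07) for CD201-only against double-positive cells, and the ratios of the mean FPKM were 0.163 and 0.124. The call between double-negative and CD201-only cells (0.24, adjusted p = 0.0364) was lost under 11 of 13 alternatives, each left-out library among them (adjusted p of up to 0.166). ITGA1, which prefers basement membrane collagen, averaged 6.34 ± 0.861 FPKM in double-negative cells, 2.72 ± 0.082 in CD201-only cells and 4.53 ± 0.138 in double-positive cells (SD, n = 2 each), so CD201-only cells were lowest. All 3 differences of ITGA1 were called, with changes of 0.40, -0.57 and 0.98 in the order of the comparisons above. ITGA2, a collagen receptor of epithelia and platelets, was called in none of the comparisons, with means of 7.04, 6.52 and 6.89 FPKM in the double-negative, CD201-only and double-positive groups. ITGA10, of cartilage and mesenchyme, failed the filter, with 0.40 and 0.28 FPKM in the CD13-negative groups and 2.16 FPKM in double-positive cells, where neither library overlapped the others.

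ITGA4, a receptor chain for fibronectin and for VCAM1 on other cells, was at 12.1 and 11.6 FPKM in double-negative samples, 9.20 and 11.0 in CD201-only samples and 29.4 and 27.2 in double-positive libraries. Both CD13-negative groups were below the double-positive libraries without overlap. The change was -1.19 (SE 0.0824, adjusted p = 1.87e-05) in double-negative and -1.40 (adjusted p = 1.02e-05) in CD201-only cells. In double-negative against CD201-only cells the change of 0.21 was not called (adjusted p = 0.0827), but without CD201-only replicate 2 it was 0.33 (adjusted p = 0.0162). ITGA8, which binds nephronectin in kidney mesenchyme, failed the filter, with means of 0.416 and 0.0911 FPKM in double-negative and CD201-only cells and 2.49 FPKM in double-positive cells. ITGA9, a chain related to alpha4, stayed between 0.192 and 0.324 FPKM in the 6 libraries.

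The laminin-binding alpha chains went opposite ways. ITGA3, which pairs with beta1 and is found in epithelia and cultured fibroblasts alike, was at 27.7 and 27.4 FPKM in double-negative samples, 34.8 and 34.4 in CD201-only samples and 96.1 and 93.9 in double-positive libraries. The 3 groups were ordered without overlap. Its change was -1.75 (SE 0.03, adjusted p = 4.92e-08) in double-negative and -1.43 (adjusted p = 1.41e-07) in CD201-only cells against double-positive cells, and -0.32 (adjusted p = 0.00024) between double-negative and CD201-only cells. ITGA6, the alpha chain shared by hemidesmosomes and pluripotent cells, was at 48.3 and 48.6 FPKM in double-negative samples, 50.4 and 49.1 in CD201-only samples and 32.9 and 33.7 in double-positive libraries. It rose by 0.53 (SE 0.0314, adjusted p = 8.81e-06) in double-negative cells and, in CD201-only cells, by 0.57 (adjusted p = 7.79e-06), and the CD13-negative groups did not pass the test against each other (-0.04, adjusted p = 0.383). ITGA6 exceeded ITGA3 in the CD13-negative cells, with ratios of FPKM of 1.75 and 1.77 in double-negative and 1.45 and 1.43 in CD201-only libraries. In double-positive libraries it was 0.343 and 0.359 of ITGA3. ITGA7, the laminin receptor chain of muscle, had means of 1.43 FPKM in double-negative, 1.39 FPKM in CD201-only and 1.201 FPKM in double-positive cells and was called in none of the comparisons.

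**Figure D2:**
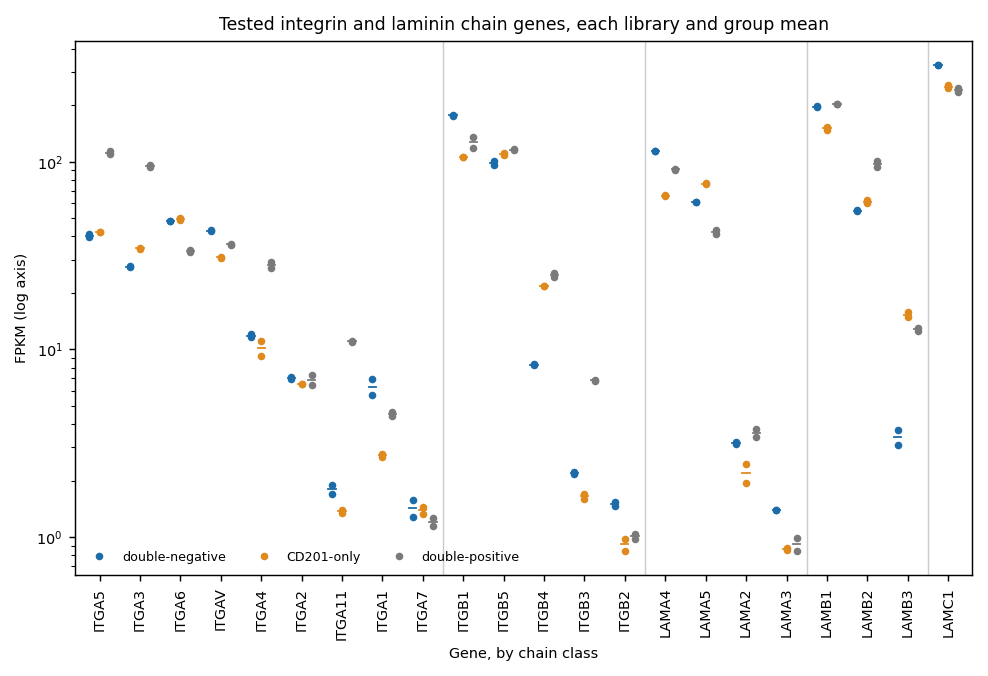
FPKM on a log axis for 22 of the 23 tested genes, grouped by chain class, with 1 point per library and a short line at each group mean (n = 2). ITGA5, ITGA3, ITGA4, ITGA11 and ITGB3 were highest in double-positive cells, and ITGB4 and LAMB3 were lowest in double-negative cells.

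Among the beta chains, ITGB1 was the highest in double-negative and double-positive cells. This common partner of most alpha chains was at 176 and 178 FPKM in double-negative samples, 106 and 106 in CD201-only samples and 118 and 136 in double-positive libraries. The groups did not overlap, although the double-positive libraries lay further apart than those of the other groups. It rose by 0.48 (SE 0.0592, adjusted p = 0.000344) in double-negative cells and fell by 0.26 (adjusted p = 0.00814) in CD201-only cells against double-positive cells, and differed by 0.73 (adjusted p = 0.000113) between double-negative and CD201-only cells. ITGB5, a partner of alphaV in vitronectin binding, varied little, with 96.4 and 101 FPKM in double-negative samples, 109 and 111 in CD201-only samples and 116 and 117 in double-positive libraries. Its falls in double-negative cells were called (-0.23, adjusted p = 0.000393 against double-positive, and -0.16, adjusted p = 0.00647 against CD201-only cells). Leaving out double-negative replicate 1 ended the second call (adjusted p = 0.0503). The change between CD201-only and double-positive cells of -0.08 missed the threshold (adjusted p = 0.0551). It passed after median-ratio rescaling (-0.16, adjusted p = 0.00317), after quantile normalization (adjusted p = 0.0163) and in the fit blocked on replicate number (adjusted p = 0.0395).

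ITGB3, the other main partner of alphaV, found on platelets and migrating mesenchymal cells, was at 2.22 and 2.16 FPKM in double-negative samples, 1.60 and 1.69 in CD201-only samples and 6.89 and 6.78 in double-positive libraries. Only the double-positive libraries passed 3 FPKM. The changes were -1.29 (SE 0.0692, adjusted p = 5.35e-06) in double-negative and -1.57 (adjusted p = 2.78e-06) in CD201-only cells. The call between double-negative and CD201-only cells (0.27, adjusted p = 0.0202) was lost with quantile normalization and without any 1 of their 4 libraries (adjusted p of up to 0.0934). ITGB4, whose long tail anchors keratin filaments in hemidesmosomes, was at 8.35 and 8.23 FPKM in double-negative samples, 21.8 and 21.8 in CD201-only samples and 25.6 and 24.3 in double-positive libraries. Double-negative cells stood apart here, by -1.48 (SE 0.0434, adjusted p = 4.16e-07) from double-positive and by -1.29 (adjusted p = 2.63e-06) from CD201-only cells. CD201-only cells were lower than double-positive cells by a small amount (-0.19, adjusted p = 0.00852). ITGB2, the beta chain of leukocyte integrins, passed the filter through its level in double-negative cells, with 1.54 and 1.47 FPKM there and means of 0.913 FPKM in CD201-only and 1.01 FPKM in double-positive cells. It had to be higher there to be tested, so no test is given for it.

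The make-up of the receptor transcripts differed between the groups. The 8 beta chain genes summed to 285 and 291 FPKM in double-negative samples, 241 and 242 in CD201-only samples and 269 and 286 in double-positive libraries. The 18 alpha chain genes summed to 192 and 192 FPKM in double-negative and 183 and 182 in CD201-only libraries, against 339 and 333 in double-positive libraries. FPKM is a level per transcript length, so these sums weigh each gene by its transcripts. The ratio of summed alpha to summed beta levels was 0.674 and 0.660 in double-negative samples, 0.759 and 0.753 in CD201-only samples and 1.26 and 1.16 in double-positive libraries. ITGA5 and ITGA3 made up 21.0% and 14.3% of the alpha sum in double-negative cells and 23.0% and 18.9% in CD201-only cells, against 33.4% and 28.3% in double-positive cells. ITGA6 led in the CD13-negative groups, with 25.2% in double-negative and 27.3% in CD201-only cells, against 9.92% in double-positive cells. ITGAV held 22.3%, 16.9% and 10.8% in the double-negative, CD201-only and double-positive groups. Of the beta sum, ITGB1 held 61.4% in double-negative samples, 43.8% in CD201-only samples and 45.7% in double-positive cells, and ITGB5 34.3%, 45.6% and 42.0%. These shares are descriptions of 2 libraries per group and were not tested.

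**Figure D3:**
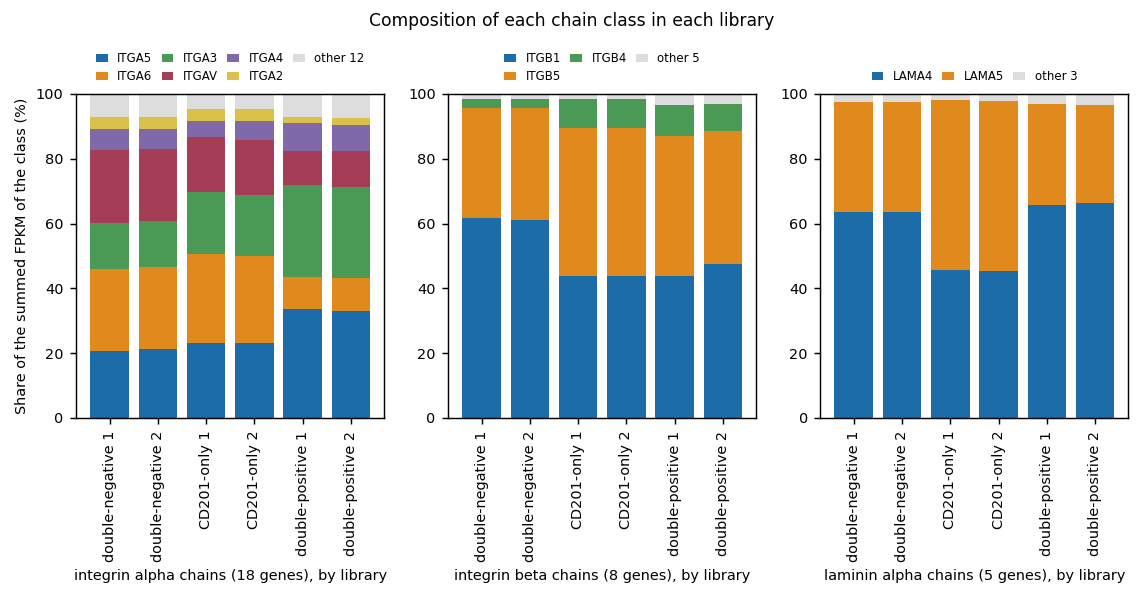
Share of the summed FPKM (percent, from 0 to 100) held by each leading gene in each of the 6 libraries, for the 18 integrin alpha, 8 integrin beta and 5 laminin alpha chain genes. ITGA6 takes 25.2% and 27.3% of the alpha chain sum in the CD13-negative groups against 9.92% in double-positive cells, and LAMA5 takes 52.5% of the laminin alpha sum in CD201-only cells.

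Laminin alpha chains, which carry the main binding sites for integrins, were led by LAMA4 and LAMA5. LAMA4, of vessel walls and mesenchyme, was at 115 and 115 FPKM in double-negative samples, 66.4 and 65.6 in CD201-only samples and 91.2 and 90.8 in double-positive libraries. The 3 groups were ordered without overlap. It rose by 0.33 (SE 0.0245, adjusted p = 2.61e-05) in double-negative cells and fell by 0.46 (adjusted p = 6.57e-06) in CD201-only cells against double-positive cells, and differed by 0.79 (adjusted p = 1.83e-06) between them. LAMA5, the chain of the laminins on which pluripotent cells and mature epithelia rest, was at 60.9 and 61.4 FPKM in double-negative samples, 76.7 and 76.0 in CD201-only samples and 43.3 and 41.2 in double-positive libraries. CD201-only cells were highest and double-positive cells lowest. The rise over double-positive cells was 0.52 (SE 0.0329, adjusted p = 1.16e-05) in double-negative and 0.84 (adjusted p = 1.7e-06) in CD201-only cells, and double-negative cells were lower than CD201-only cells (-0.32, adjusted p = 0.000386). The ratio of LAMA5 to LAMA4 was 0.531 and 0.535 in double-negative libraries, 1.16 and 1.16 in CD201-only libraries and 0.475 and 0.453 in double-positive libraries, so LAMA5 led only in the CD201-only ones. Of the laminin alpha sum, LAMA5 held 33.9% in double-negative samples, 52.5% in CD201-only samples and 30.6% in double-positive cells. LAMA2, the merosin chain of muscle and fibroblasts, had means of 3.17, 2.19 and 3.59 FPKM and fell in CD201-only cells (-0.53 against double-positive, adjusted p = 0.00264). Its call in double-negative against CD201-only cells (0.39, adjusted p = 0.0168) was lost without either double-negative library or CD201-only replicate 1 (adjusted p of up to 0.0864). LAMA1, the chain of early embryonic basement membranes, stayed at or under 0.127 FPKM in every library.

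Laminin beta chains differed in direction. LAMB1, the most widespread beta chain, was at 195 and 197 FPKM in double-negative samples, 153 and 149 in CD201-only samples and 204 and 203 in double-positive libraries. Only CD201-only cells stood apart, lower by 0.43 (SE 0.024, adjusted p = 7.79e-06) than double-positive cells and by 0.38 than double-negative cells (double-negative minus CD201-only 0.38, adjusted p = 3.69e-05). The change in double-negative against double-positive cells (-0.05, adjusted p = 0.0943) passed the threshold as a fall after median-ratio rescaling (-0.17, adjusted p = 0.000748) and also after quantile normalization. LAMB2, the beta chain of synapses, muscle and kidney filters, was at 55.1 and 54.7 FPKM in double-negative samples, 62.2 and 60.3 in CD201-only samples and 101 and 94.2 in double-positive libraries. Both CD13-negative groups lay under the double-positive libraries, with changes of -0.82 (SE 0.0396, adjusted p = 3.3e-06) and -0.66 (adjusted p = 1.09e-05). Its small change between double-negative and CD201-only cells (-0.16, adjusted p = 0.0194) was lost under 5 of 13 alternatives, those without either double-negative library or CD201-only replicate 1 among them (adjusted p of up to 0.104). The ratio of LAMB1 to LAMB2 was 3.55 and 3.61 in double-negative samples, 2.45 and 2.46 in CD201-only samples and 2.02 and 2.15 in double-positive libraries.

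Among gamma chains, LAMC1, the common partner in most laminins, was the highest of the 38 genes. It was at 328 and 326 FPKM in double-negative samples, 246 and 257 in CD201-only samples and 234 and 246 in double-positive libraries. Double-negative cells were above the rest, by 0.45 (SE 0.0319, adjusted p = 2.17e-05) over double-positive and 0.38 (adjusted p = 0.000136) over CD201-only cells, and the CD201-only and double-positive groups did not pass the test (0.07, adjusted p = 0.116) except without double-positive replicate 2 (0.10, adjusted p = 0.0349). LAMC3, a gamma chain outside most basement membranes, stayed between 0.160 and 0.557 FPKM.

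LAMA3 and LAMB3 are an alpha and a beta chain of the laminin that anchors epithelia. LAMB3 was at 3.10 and 3.73 FPKM in double-negative samples, 15.8 and 14.8 in CD201-only samples and 13.0 and 12.6 in double-positive libraries. Double-negative cells were the low group. The change of LAMB3 was -1.65 (SE 0.0777, adjusted p = 2.99e-06) against double-positive and -1.89 (adjusted p = 5.96e-06) against CD201-only cells. The rise of LAMB3 in CD201-only over double-positive cells (0.24, adjusted p = 0.0315) was lost under 6 of 13 alternatives, among them those without any 1 of the 4 libraries compared, with adjusted p of up to 0.152. LAMA3 was low throughout and passed the filter through its level in double-negative cells, with means of 1.39 ± 0.00232 FPKM in double-negative samples, 0.867 ± 0.0143 in CD201-only samples and 0.915 ± 0.0971 in double-positive cells (SD, n = 2 each). Its level there let it be tested at all, and it failed the filter when either double-negative library was left out, so its calls are not given. The ratio of LAMB3 to LAMA3 was 2.24 and 2.69 in double-negative samples, 18.5 and 16.9 in CD201-only samples and 15.4 and 12.8 in double-positive libraries. The chains of the hemidesmosome receptor differed too, with ITGA6 at 5.79 and 5.90 times ITGB4 in double-negative, 2.31 and 2.25 times in CD201-only and 1.28 and 1.39 times in double-positive libraries.

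**Figure D4:**
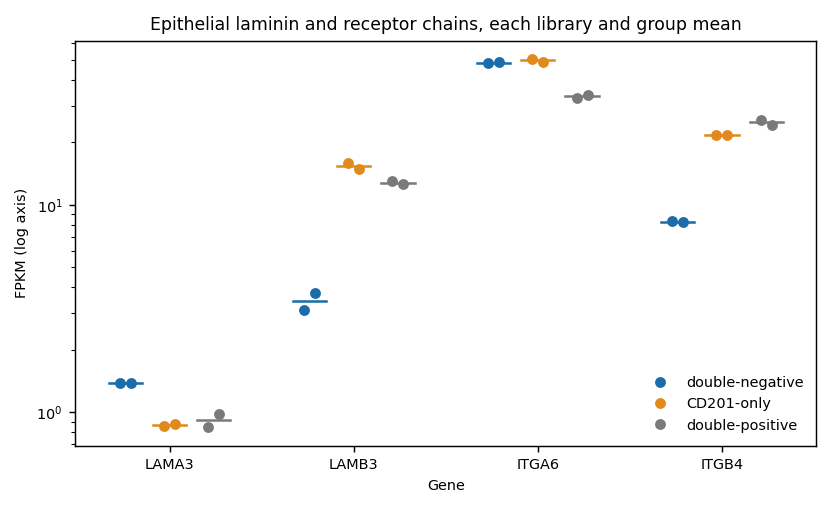
FPKM on a log axis of LAMA3, LAMB3 and the 2 chains of the hemidesmosome receptor, ITGA6 and ITGB4, with 1 point per library and a line at each group mean (n = 2). LAMB3 and ITGB4 are lowest in double-negative cells.

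Promoter sequences were matched for 26 of the 38 genes, as 33 windows of 300 bases that end just after a RefSeq transcription start (GRCh38.p14). They were searched on both strands for motifs of factors that are active in fibroblasts or were delivered here, AP-1 (TGANTCA), the GC box of SP and KLF factors (GGGCGG), TEAD (GGAATG), the E-box of SNAI and ZEB repressors (CAGGTG) and the octamer of OCT4 (ATGCAAAT). The windows below belong to the fibronectin receptor chain that fell in both CD13-negative groups, the most reduced collagen receptor, the laminin alpha chain that rose in both and the epithelial laminin chain that was lowest in double-negative cells. Capitals mark the matches, and no base of these 4 windows lies in more than 1 motif. ITGA5 is at chr12:54419217-54419516, ITGA11 at chr15:68432114-68432413, LAMA5 at chr20:62367263-62367562 and LAMB3, of whose 3 windows the one with an AP-1 match is shown, at chr1:209651325-209651624, all on the minus strand and written 5′ to 3′.
ITGA5: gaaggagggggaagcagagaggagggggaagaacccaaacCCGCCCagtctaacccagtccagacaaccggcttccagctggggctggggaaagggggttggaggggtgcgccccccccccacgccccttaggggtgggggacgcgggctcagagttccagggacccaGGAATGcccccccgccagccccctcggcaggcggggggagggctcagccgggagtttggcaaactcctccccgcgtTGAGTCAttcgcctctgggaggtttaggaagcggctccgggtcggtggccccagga
ITGA11: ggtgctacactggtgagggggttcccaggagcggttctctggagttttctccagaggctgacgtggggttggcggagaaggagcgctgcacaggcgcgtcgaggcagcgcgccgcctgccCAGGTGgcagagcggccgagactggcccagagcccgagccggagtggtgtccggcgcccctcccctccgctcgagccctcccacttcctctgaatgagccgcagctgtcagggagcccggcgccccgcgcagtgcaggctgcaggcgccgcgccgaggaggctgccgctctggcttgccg
LAMA5: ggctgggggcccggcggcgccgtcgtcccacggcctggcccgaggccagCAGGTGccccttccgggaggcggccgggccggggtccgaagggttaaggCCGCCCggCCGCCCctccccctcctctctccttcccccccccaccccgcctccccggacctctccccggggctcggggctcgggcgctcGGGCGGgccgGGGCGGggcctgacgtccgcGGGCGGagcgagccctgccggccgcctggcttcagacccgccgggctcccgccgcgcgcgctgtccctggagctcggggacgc
LAMB3: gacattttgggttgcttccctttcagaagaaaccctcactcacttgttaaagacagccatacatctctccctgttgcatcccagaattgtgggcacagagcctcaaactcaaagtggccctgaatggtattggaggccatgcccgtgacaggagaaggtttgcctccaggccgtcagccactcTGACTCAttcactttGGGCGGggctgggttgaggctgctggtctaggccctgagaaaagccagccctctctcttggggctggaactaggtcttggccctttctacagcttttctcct

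The AP-1 motif was found for 3 member genes, ITGA5, LAMA3 and LAMB3, in 3 of 33 windows, and in 7.71% of 35116 windows of all genes. The TEAD motif was found in 4 of the 33 windows (4928 of the 35116 windows of all genes), among them that of ITGA5, and the E-box in 8 (20.6% of all windows), among them those of ITGA11 and LAMA5. GC boxes were found in 19 of the 33 windows (45.0% of all), with 5 matches for LAMA5, and the octamer in 0 (1.77% of all). The genes with an AP-1 match did not share a direction. ITGA5 fell in both CD13-negative groups and LAMB3 fell in double-negative cells. LAMA3, low throughout, had its highest mean in double-negative samples, at 1.39 FPKM, the level that let it pass the filter. Its other means were 0.867 FPKM (CD201-only) and 0.915 FPKM (double-positive). A link between the motif and these levels was not tested. The matches describe letters in these windows only, and binding was not measured here.

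By the cell type each chain is known from, the lists overlap, since beta1, for example, serves fibroblasts and pluripotent cells. Of 13 tested fibroblast receptor and laminin genes, 5 rose and 6 fell in double-negative cells against double-positive cells (median -0.14). The 5 rises are near the share over all genes. CD201-only cells had 11 falls against double-positive cells (median -0.53), and the other 2, ITGB5 and LAMC1, did not pass the test. In double-negative against CD201-only cells 9 of them rose and 2 fell (median 0.38). Of 7 tested epithelial genes, 3 rose and 3 fell in double-negative cells (median 0.03). The 3 rises are near the share over all genes and include LAMA3, which had to be higher there to be tested. In CD201-only cells 3 rose and 2 fell (median -0.04), both near the shares over all genes. The epithelial list held ITGA6, which rose, and ITGA3, ITGB4 and LAMB3, which fell in double-negative cells. Of 8 tested genes of pluripotent-cell receptors and laminins, 5 rose and 2 fell in double-negative cells (median 0.34). The 2 falls are near the share over all genes. In CD201-only cells 2 of these genes rose and 4 fell (median -0.15). Those that rose in CD201-only cells were ITGA6 and LAMA5. Set against CD201-only cells, double-negative cells had 2 epithelial genes higher and 3 lower (median -0.04). LAMA3 is again among the higher ones, for the same reason. Of the pluripotent-cell genes, 4 were higher and 3 lower (median 0.17).

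The remaining members were at low level. ITGAD was listed at 0 in every library, and 10 of the 15 untested genes stayed under 1 FPKM in every library. Besides ITGA8 and ITGA10, the genes that passed 1 FPKM in a group mean were ITGAL, ITGAM and ITGB7, which encode leukocyte integrin chains. ITGAL was at 1.34 and 1.25 FPKM in double-negative samples, 0.748 and 0.787 in CD201-only samples and 0.392 and 0.380 in double-positive libraries, ordered without overlap. ITGB7 ran the other way, with means of 0.507, 0.881 and 1.23 FPKM in the double-negative, CD201-only and double-positive groups. Beside them, the leukocyte gene PTPRC was at 0.837, 0.147 and 0.307 FPKM and the myeloid factor SPI1 at 0.0136, 0.0406 and 0 FPKM in the same groups, and CD3E of T cells was listed at 0. Other genes of the same blood marker list were well above 1 FPKM, with CD14 at 19.8, 8.94 and 32.9 FPKM, CD68 at 11.3, 8.10 and 54.3 FPKM, CORO1A at 20.3, 27.6 and 14.4 FPKM and CD34 at 13.8, 50.003 and 25.6 FPKM in the double-negative, CD201-only and double-positive groups. Their part in the levels of the leukocyte integrin chains was not tested. Epithelial ITGB6 and ITGB8, partners of alphaV that activate TGF-beta, were at or under 0.289 FPKM in every library.

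Of 12 tested matrix ligands of integrins, 11 fell and 1 rose in each CD13-negative group against double-positive cells. The medians were -1.30 in double-negative and -1.25 in CD201-only cells. Over all genes, 24.5% fell and 42.1% rose in double-negative cells, and 22.9% fell and 35.8% rose in CD201-only cells. Fibronectin, FN1, the ligand of ITGA5, averaged 169 FPKM in double-negative samples, 67.2 in CD201-only samples and 585 in double-positive cells (log2 changes -1.79 and -3.10). In double-negative cells the largest changes were of COL1A1 (-2.47), THBS1 (-2.12) and COL1A2 (-2.02), and in CD201-only cells of FN1, THBS1 (-3.10) and COL1A1 (-2.79). Between double-negative and CD201-only cells 8 were higher (21.5% of all genes) and 3 lower (16.5%), with FBLN2 at -1.42, FN1 at 1.32 and THBS1 at 0.98.

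Of 10 tested partners of laminin in basement membranes, 3 rose and 5 fell in double-negative cells against double-positive cells. In CD201-only cells 2 of them rose and 6 fell. Over all genes, 42.1% rose and 24.5% fell in double-negative cells, and 35.8% rose and 22.9% fell in CD201-only cells. The proteoglycan perlecan, HSPG2, averaged 14.5, 30.4 and 49.1 FPKM in the double-negative, CD201-only and double-positive groups, with changes of -1.69 and -0.67. COL18A1 changed by -1.46 and -0.87, COL4A2 by -0.84 in double-negative cells, and COL4A1 by -0.78 and FRAS1 by 0.88 in CD201-only cells. Between double-negative and CD201-only cells 2 were higher (21.5% of all genes) and 5 lower (16.5%), with HSPG2 at -1.02, NTN4 at 0.69 and COL18A1 at -0.59. Another list held 11 genes of non-integrin laminin receptors, of the dystrophin and utrophin complexes and of hemidesmosomes. Of these 11, 7 rose and 2 fell in double-negative cells (median 0.38). The largest rises were of dystrophin, DMD (1.25), the Lutheran laminin receptor BCAM (0.74) and utrophin, UTRN (0.73). In CD201-only cells 5 rose and 3 fell, with the hemidesmosome collagen COL17A1 at 1.09, SGCB at -0.73 and RPSA, which shares reads with pseudogenes, at 0.50. Between double-negative and CD201-only cells 7 were higher and 3 lower, with DMD at 0.99, COL17A1 at -0.87 and UTRN at 0.63.

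Of 25 cytoplasmic adaptors and kinases of adhesions, 4 rose and 16 fell in double-negative cells (median -0.16) and 11 rose and 6 fell in CD201-only cells (median 0.03) against double-positive cells. The tensin TNS1, which binds beta tails, averaged 3.28, 4.75 and 16.2 FPKM in the double-negative, CD201-only and double-positive groups, with changes of -2.00 and -1.58. The kindlin FERMT2, an integrin activator, rose by 0.66 and PARVB by 0.59 in double-negative cells, and TNS4, a tensin of epithelia, changed by 1.12 and PARVA by -0.53 in CD201-only cells. Between double-negative and CD201-only cells 3 were higher and 13 lower, led by TNS4 (-1.57), LIMS2 (-0.75) and paxillin, PXN (-0.69). Of 10 membrane proteins that associate with integrins, 2 rose and 6 fell in double-negative cells and 1 rose and 5 fell in CD201-only cells. The tetraspanin CD82 changed by -2.39 and -2.67, caveolin CAV1 by -1.15 and -2.03, and CD63 by -0.43 and -0.54. Between double-negative and CD201-only cells 4 were higher and 3 lower, with CAV1 at 0.88, SLC3A2 at 0.45 and CD82 at 0.29. Over all genes, the shares called higher and lower were those given above for each comparison.

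Marker lists of cell types also differed between the groups, and their part in the results was not tested. They are not separate from the lists above, since COL1A1, COL1A2 and COL3A1 are also matrix ligands and COL17A1 is also a hemidesmosome gene. The 10 fibroblast markers summed to 5479 to 5482 FPKM in double-negative, 6309.5 to 6336 in CD201-only and 10586 to 10744 in double-positive libraries. Of 9 tested, 8 fell in each CD13-negative group, against 24.5% of all genes in double-negative and 22.9% in CD201-only cells. The falls include LUM, at 0.528 FPKM in double-negative and 0.300 FPKM in CD201-only cells. It reached the filter only through double-positive cells, so it had to be lower in the others. The exceptions were THY1, which rose in double-negative cells (0.26), and S100A4, which rose in CD201-only cells (0.21). Of the same list, DCN, LUM and FAP were low everywhere, at 3.67, 3.47 and 1.32 FPKM in double-positive cells, where they were highest. COL1A1 and COL1A2 stood at 1691 and 1871 FPKM in those cells. The 10 epithelial markers summed to 3100.3 to 3113, 4087 to 4159 and 2075 to 2145 FPKM in the double-negative, CD201-only and double-positive libraries, with ESRP1 at or under 0.125 FPKM in the group means. The 8 keratinocyte markers summed to 36.4 to 38.0, 74.1 to 75.1 and 85.2 to 88.4 FPKM, and TP63, which defines basal keratinocytes, was at 0.0115, 0.0284 and 0 FPKM. The 4 tested keratinocyte markers differed in direction. COL17A1 and KRT5 were highest in CD201-only cells, at 56.1 and 9.79 FPKM. KRT14 and KRT16 were highest in double-positive cells, at 29.7 and 24.5 FPKM. All 8 tested of 10 pluripotency markers rose in each CD13-negative group, against 42.1% of all genes in double-negative and 35.8% in CD201-only cells. The 10 summed to 207 and 207 FPKM, 134 and 135 FPKM, and 62.8 and 65.5 FPKM in the double-negative, CD201-only and double-positive libraries. Epithelial sums were thus highest in CD201-only, and pluripotency sums in double-negative, libraries. The epithelial sum was mostly KRT8 and KRT18, at 1474 and 1578 FPKM in double-negative cells. Against double-positive cells all 7 tested epithelial markers rose in CD201-only cells (35.8% of all genes). In double-negative cells 5 rose (42.1% of all genes) and 2 fell (24.5%), CLDN4 (-1.61) and KRT19 (-0.34). From CD201-only to double-negative cells, 6 pluripotency markers were higher (21.5% of all genes), UTF1 was lower (-0.27) and NANOG was not called (-0.06). The 10 blood markers summed to 67.4 to 68.8, 97.3 to 97.6 and 132 to 138 FPKM, and the 9 endothelial markers to 20.3 to 20.9, 33.7 to 35.9 and 34.6 to 37.4 FPKM.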

How the data were processed

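Libraries were made with a stranded mRNA kit, per the labels. The deposited FPKM values, 1 column per library, came from STAR and Cuffnorm with builds hg19 and GRCh37 (per the processing notes of the submitters). Their versions, the annotation, the strand setting of the counting and any rescaling by Cuffnorm were not given in the sources used here. The 12210 genes that averaged 1 FPKM or more across all 6 libraries were fitted as log2(FPKM + 1) with limma 3.58.1 in R 4.3.3. The model had a coefficient per group and a variance trend, with 3 residual and 3.95 prior degrees of freedom. Each comparison was adjusted by Benjamini-Hochberg over all tested genes, and calls were made under 0.05. The limma fit was tested on simulated log2 values with known changes, for double-negative against double-positive cells only. The simulated noise was independent and had the spread of these libraries. That test did not cover the filter, the rescalings, the other comparisons, the depth estimate or the promoter search. Members with a log2 change of at least 1 in any comparison, or a mean of at least 50 FPKM in any group, are given for every library; ITGA6, ITGAV, ITGAL and ITGB2 were added after their values were seen, the others as means. For 1 tested member, which stays in the counts, no values are reported here. Up to 3 called genes with the largest change are named from each pathway list. Members and lists were chosen with earlier results of these data known. The 13 alternatives changed 1 choice each. The replicate numbers are not stated to mark a shared batch. Depth was approximated from 205 genes with 1 transcript of at least 2000 nt in GENCODE, with fragments taken as 200 nt and low values as 1 fragment. The rest used pandas 2.3.3, matplotlib 3.10.9 and numpy 2.4.6 under Python 3.11.15. Promoter sequences are from RefSeq, GRCh38.p14, and no coordinates of the deposited build were used.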

Additional observations from a re-analysis of the deposited data

How the results depend on the processing

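Of 69 comparisons of the 23 tested members, 55 kept their call (higher, lower or not called) under each of the alternatives that gave a value, and no called value changed sign. Without the filter, 14 members were called lower in double-negative than in double-positive cells, against 9 with it, with 37 rather than 23 tested. Leaving out 1 library at a time gave 8 to 10 members higher and 9 to 11 lower in double-negative against double-positive cells, against 10 and 9 with all libraries. In CD201-only against double-positive cells it gave 3 to 4 higher and 13 to 15 lower, against 4 and 13. In double-negative against CD201-only cells it gave 7 to 11 higher and 4 to 6 lower, against 12 and 6; the 7 came without double-negative replicate 1 and without CD201-only replicate 1. A group left with 1 library is assumed to vary like the others. With the replicate number as a block the counts were 10 and 9, 4 and 14, and 11 and 6 in the same order. Same-numbered libraries correlated in their deviations by -0.07, 0.12 and 0.08 over genes, so the numbers were not taken as pairs. Under a pseudocount of 0.1 the counts were those with 1. The 15 genes below the filter, 10 of them under 1 FPKM in every library, were left out by that choice.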

Other observations

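Some member genes neighbour each other in the RefSeq order of protein-coding genes (GRCh38.p14). LAMB1 and LAMB4 are adjacent on chromosome 7, where LAMB1 averaged 196, 151 and 204 FPKM in the double-negative, CD201-only and double-positive groups and LAMB4 stayed at or under 0.109 FPKM. ITGAM, ITGAX and ITGAD follow each other on chromosome 16, with ITGAX at 0.0741, 0.0735 and 0.354 FPKM in the same groups. Of genes that could share reads with members, the antisense genes LAMA5-AS1 and LAMC1-AS1 were listed at 0 in every library, and the pseudogene LAMB2P1 was at 0.0664, 0.0789 and 0.0757 FPKM. ITGB2-AS1, whose reads cannot be told from ITGB2 if strand was not used, was at 1.01, 0.626 and 0.459 FPKM, against 1.50, 0.913 and 1.01 FPKM for ITGB2. With the same limit, ITGA9-AS1 was at 0.893, 1.30 and 0.958 FPKM, against 0.228, 0.299 and 0.303 FPKM for ITGA9.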
